A study of Homo sapiens with 108 samples.

Results

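This account covers 47 human genes that act at the G1/S transition or in DNA replication: the MCM2-7 helicase, the factors that license and fire origins, the polymerases, the clamp and its loader, the single-strand binding protein, nucleotide enzymes, and the cyclins and E2F factors that start S phase. A gene of this list was taken in when a probe of the array carried its symbol alone, and no measured value entered that step. The list itself was chosen with earlier results of these data known. Of the 47 genes, 46 had such a probe and 45 were tested, against 13662 tested genes of the 18278 named by probes with 1 symbol. RPA2, a subunit of the single-strand binding protein, had a probe only under several symbols and is not reported. CDC45, which joins the helicase at active origins, had 5 missing values and a group with no value, so it was not tested.

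The study measured RNA in 6 melanoma lines (MeWo, HMV-I, 92-1, HMV-II, Colo679 and C32TG), with a dose of 2 Gy given either as carbon ions, which deposit their energy along dense tracks, or as X-rays. RNA came from cells harvested 1 h or 3 h later, and for either beam a line had a separate unirradiated (0 Gy) set. The design therefore held 36 groups of 3 single-colour arrays, and the 1 h and 3 h groups of a beam shared their controls while the beams shared none. Every group is a tumour line in culture, no line is a normal melanocyte, and the labels give neither the time at which the 0 Gy cells were taken nor whether separate cultures lie behind the 3 arrays of a group. Within a line, p-values then measure no more than the spread of these arrays, which may be technical.

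Values are log2 intensities after quantile normalization, and a change is the mean of the irradiated arrays minus the mean of the same beam's 0 Gy arrays in that line. Across lines the change is given as mean ± SD over n = 6 lines, and within a line as the change ± SE over 3 arrays against 3. A gene was called when limma's adjusted p, taken over all probes of the fit, was under 0.05. Missing values ran from 1000 to 8034 per array, replicate arrays correlated at 0.987 to 0.998 across probes, and the number of arrays limits the precision. Melanocyte markers (7 of 8 tested) summed to an intensity of 429 or more on every array of 5 lines, but to only 20.1 to 31.9 on the arrays of HMV-I. Fibroblast markers (6 of 7 tested) summed to 6.39 to 87.2, the keratinocyte marker KRT14 lay at 0.577 to 2.45 and the leukocyte marker CD68 at 1.09 to 17.7, and the part of such cells in the results below was not tested. RNA was measured in bulk, so fewer cells in S phase and less RNA per cell cannot be told apart.

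Replication is prepared in G1, when ORC, CDC6 and CDT1 load the MCM2-7 helicase onto origins, and it starts when cyclin E-dependent kinase and the CDC7-DBF4 kinase switch that helicase on together with CDC45 and the GINS complex. Most genes of this machinery are transcribed under E2F factors that are held back by the RB family in G1. After DNA damage p53 induces the kinase inhibitor CDKN1A, which keeps E2F targets off over the following hours, while CDC25A, GMNN and CDT1 are also known to be controlled through protein degradation that RNA arrays do not see.

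Promoter sequences from RefSeq (build GRCh38.p14) were at hand for 41 of the genes, and the 250 bases before the listed transcription start were searched on both strands. An E2F site (TTTGGCGC, TTTCCCGC, TTTGCCGC or TTTCGCGC) was found in 18 of the 41 genes (43.9%), against 928 of all 27305 genes with a promoter in the table (3.4%). The NF-Y box (CCAAT) was found in 24 of the 41 (58.5%), against 37% of all, and the CHR element (TTTGAA or TTCGAA) in 2 (4.88%), against 17.2% of all. A match is a description of the letters, and no match says only that these letters are not in this window. The 4 windows below belong to genes with many calls within lines, counting irradiation and the comparison of the unirradiated sets: 9 each for MCM2 and MCM6, 8 for RPA1 and 7 for UHRF1, which was taken for its larger mean absolute change from a tie with PRIM1, E2F2 and POLA2. Capitals mark the motif matches, each window runs 5′ to 3′ on the gene's strand and ends at the base before the listed start.
MCM2, a helicase subunit, chr3:127598161-127598410, plus strand, no match: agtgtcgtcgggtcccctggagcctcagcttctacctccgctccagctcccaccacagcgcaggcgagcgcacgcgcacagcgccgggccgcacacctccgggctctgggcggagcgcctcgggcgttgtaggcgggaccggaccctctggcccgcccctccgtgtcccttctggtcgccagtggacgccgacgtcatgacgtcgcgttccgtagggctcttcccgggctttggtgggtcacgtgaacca
MCM6, a helicase subunit, chr2:135876444-135876693, minus strand, 4 E2F, 1 CHR and 2 NF-Y matches: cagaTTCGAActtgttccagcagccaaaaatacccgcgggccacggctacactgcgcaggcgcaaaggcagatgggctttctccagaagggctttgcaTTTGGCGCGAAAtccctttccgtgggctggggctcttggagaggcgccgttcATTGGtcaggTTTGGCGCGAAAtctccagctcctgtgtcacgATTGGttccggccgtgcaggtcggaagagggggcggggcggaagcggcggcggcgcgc
RPA1, the large single-strand binding subunit, chr17:1829755-1830004, plus strand, 1 NF-Y match: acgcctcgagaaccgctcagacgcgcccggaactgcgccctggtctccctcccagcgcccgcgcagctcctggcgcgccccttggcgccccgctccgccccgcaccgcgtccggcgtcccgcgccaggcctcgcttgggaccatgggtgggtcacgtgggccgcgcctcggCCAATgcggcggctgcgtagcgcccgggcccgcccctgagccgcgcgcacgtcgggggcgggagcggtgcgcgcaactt
UHRF1, which recruits maintenance methylation to replicated DNA, chr19:4909251-4909500, plus strand, 1 E2F and 1 NF-Y match: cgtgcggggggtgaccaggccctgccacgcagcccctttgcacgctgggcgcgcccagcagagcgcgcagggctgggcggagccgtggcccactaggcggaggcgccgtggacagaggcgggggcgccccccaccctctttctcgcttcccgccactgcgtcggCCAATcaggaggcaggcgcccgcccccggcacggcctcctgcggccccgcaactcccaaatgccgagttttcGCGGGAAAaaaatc
In MCM6 the E2F matches on opposite strands overlap within TTTGGCGCGAAA, which occurs at -152 and again at -90 from the start. UHRF1 had 3 windows in the table, of which the one with the lowest coordinates is shown, and its E2F match reads GCGGGAAA at -14, the reverse strand of TTTCCCGC. The promoters of the genes that follow were not compared further with their changes.

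At 3 h after carbon ions, 3 of the 45 genes passed across the 6 lines: TYMS rose, and ORC2 and DBF4 fell. That is 1 gene higher, where 6.43% of all probes were called higher, and 2 genes lower, where 6.98% of all probes were called lower. The median change of the 45 genes was -0.01, beside 0.00 for all probes, and 9 had an unadjusted p under 0.05. The share of all probes with such a p was not counted, here or below. At 3 h after X-rays 2 genes passed: TYMS rose, where 2.96% of all probes were called higher, and PRIM1 fell, where 4.19% were called lower. Their median was -0.03, beside 0.00 for all probes, and 8 had an unadjusted p under 0.05. The share of replication genes called was thus close to or below that of the array at large for either beam. With median centring of the arrays in place of quantile normalization the counts became 9 higher and 1 lower after carbon ions and 4 higher and 0 lower after X-rays. With the deposited values they were 3 higher and 2 lower and 2 higher and 1 lower. The median of all probes itself was 0.06 and 0.04 under median centring and -0.02 and -0.01 with the deposited values. The share of all probes called was not counted under any alternative, here or below.

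**Figure D1:**
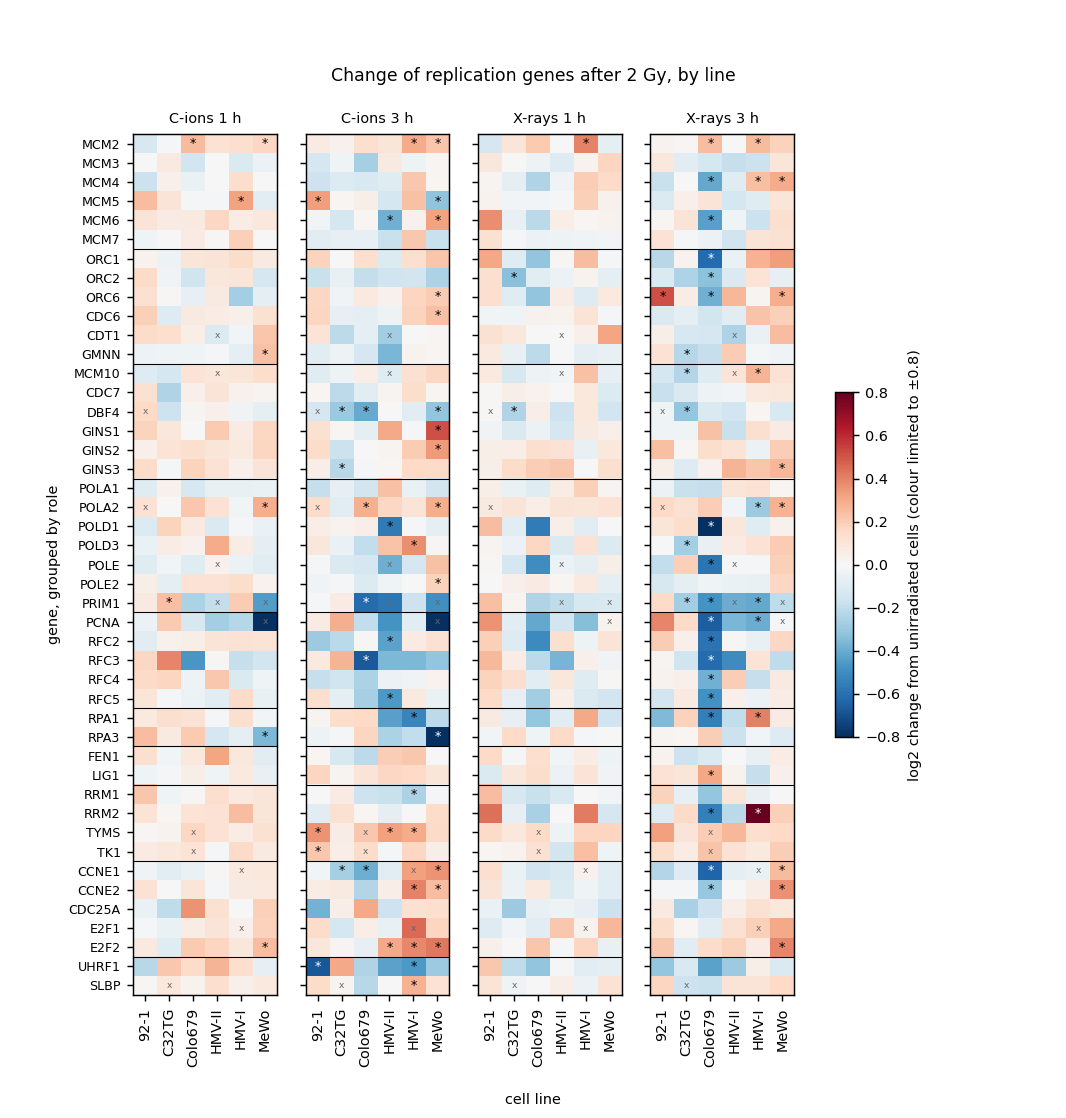
Heat map of the log2 change of the 45 tested genes (rows, ordered by role) in each of 6 lines (columns) at 1 h and 3 h after carbon ions and after X-rays, against the unirradiated set of the same beam. The colour scale runs from -0.8 to 0.8, an asterisk marks a change that passed within its line and a cross a gene not tested in that line; asterisks are few at 1 h and gather at 3 h in Colo679, HMV-I and MeWo.

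TYMS (probe 499007), thymidylate synthase, which makes the thymidylate for DNA, was the one gene of the 45 called at 3 h after both beams. In 92-1 its log2 values were 5.45, 5.33 and 5.33 without irradiation and 5.95, 5.64 and 5.60 at 3 h after carbon ions. In HMV-I they were 4.93, 5.06 and 5.05 against 5.29, 5.32 and 5.33, and in HMV-II 4.09, 4.28 and 4.38 against 4.51, 4.52 and 4.70. In each of these lines every irradiated array lay above every control array. In Colo679, where 1 control array had no value and was dropped, they were 4.82 and 4.84 against 5.17, 5.06 and 4.91. C32TG showed the smallest shift, with 5.70, 5.64 and 5.65 against 5.76, 5.69 and 5.72. Across lines TYMS rose by 0.24 ± 0.11 after carbon ions (95% interval 0.12 to 0.35, 1.18-fold, adjusted p = 0.0161, higher in 6 of 6 lines). After X-rays it rose by 0.20 ± 0.08 (interval 0.09 to 0.30, 1.15-fold, adjusted p = 0.0282, 6 of 6 lines), with HMV-II at 4.37, 4.52 and 4.41 before and 4.69, 4.68 and 4.72 after. At 1 h after X-rays its change was 0.11 ± 0.08 and did not pass (adjusted p = 0.221). The carbon ion call was lost when 92-1, HMV-II or HMV-I was left out (adjusted p at most 0.0573), and the X-ray call when 92-1, HMV-II or MeWo or the arrays numbered 1 or 3 were left out (at most 0.0956).

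PRIM1 (probe 289091), the catalytic subunit of primase, which lays the RNA primers for polymerase alpha, fell at 3 h after X-rays. In HMV-I its values were 2.96, 3.12 and 3.03 without irradiation and 2.66, 2.59 and 2.62 at 3 h. In Colo679 they were 0.68, 0.76 and 1.03 against 0.08, 0.47 and 0.50, and in C32TG 1.40, 1.46 and 1.31 against 1.05, 1.14 and 1.14. The groups did not overlap in these lines, while 92-1 moved the other way, from 2.43, 2.29 and 2.22 to 2.78, 2.26 and 2.37. Across lines PRIM1 fell by 0.27 ± 0.23 (95% interval -0.43 to -0.11, 0.83-fold, adjusted p = 0.0494, lower in 5 of 6 lines). After carbon ions its mean change was -0.30 ± 0.30 and missed the threshold (adjusted p = 0.0567), with -0.62 in Colo679, -0.58 in HMV-II, -0.49 in MeWo (1 irradiated array had no value), -0.17 in HMV-I, -0.01 in 92-1 and 0.07 in C32TG. The X-ray call was lost in 11 of 15 alternatives, among them leaving out C32TG, Colo679, HMV-II, HMV-I or MeWo or the arrays numbered 2 (adjusted p at most 0.168).

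DBF4 (probe 331040), the activating subunit of the CDC7 kinase that fires licensed origins, fell at 3 h after carbon ions. Colo679 went from 5.37, 5.39 and 5.29 to 5.01, 4.81 and 5.02, C32TG from 6.00, 6.06 and 6.08 to 5.77, 5.76 and 5.71, and MeWo from 5.70, 5.87 and 5.59 to 5.47, 5.29 and 5.44. The irradiated arrays lay below all controls in these lines, whereas in HMV-II the values overlapped, at 5.91, 5.98 and 5.63 before and 5.93, 5.78 and 5.82 after. Of all probes, 18.7%, 15.8% and 16.8% lay below all controls in Colo679, C32TG and MeWo. Across lines DBF4 fell by 0.21 ± 0.16 (0.867-fold, adjusted p = 0.0430), and after X-rays its change was -0.12 ± 0.11 (adjusted p = 0.185). The call was lost in 10 of 15 alternatives, including median centring, the deposited values and the removal of 92-1, C32TG, Colo679, HMV-I or MeWo or of the arrays numbered 2 (adjusted p at most 0.631).

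ORC2 (probe 305018), a subunit of the origin recognition complex, was the other gene that fell after carbon ions. It was lower in 6 of 6 lines, where 9.27% of all probes were. MeWo went from 2.22, 2.32 and 2.04 to 1.99, 1.92 and 1.91, 92-1 from 1.95, 1.85 and 1.77 to 1.66, 1.77 and 1.61, and C32TG from 2.02, 2.25 and 2.25 to 2.02, 2.19 and 2.14. Before and after were apart in MeWo and overlapped in C32TG, and in 92-1 the highest irradiated array equalled the lowest control to 2 decimals. Its mean change was -0.16 ± 0.06 (0.892-fold, adjusted p = 0.0418) after carbon ions and -0.13 ± 0.15 (adjusted p = 0.232) after X-rays. Leaving out any line but C32TG, or the arrays of any replicate number, took the adjusted p above 0.05, to 0.105 at most.

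**Figure D2:**
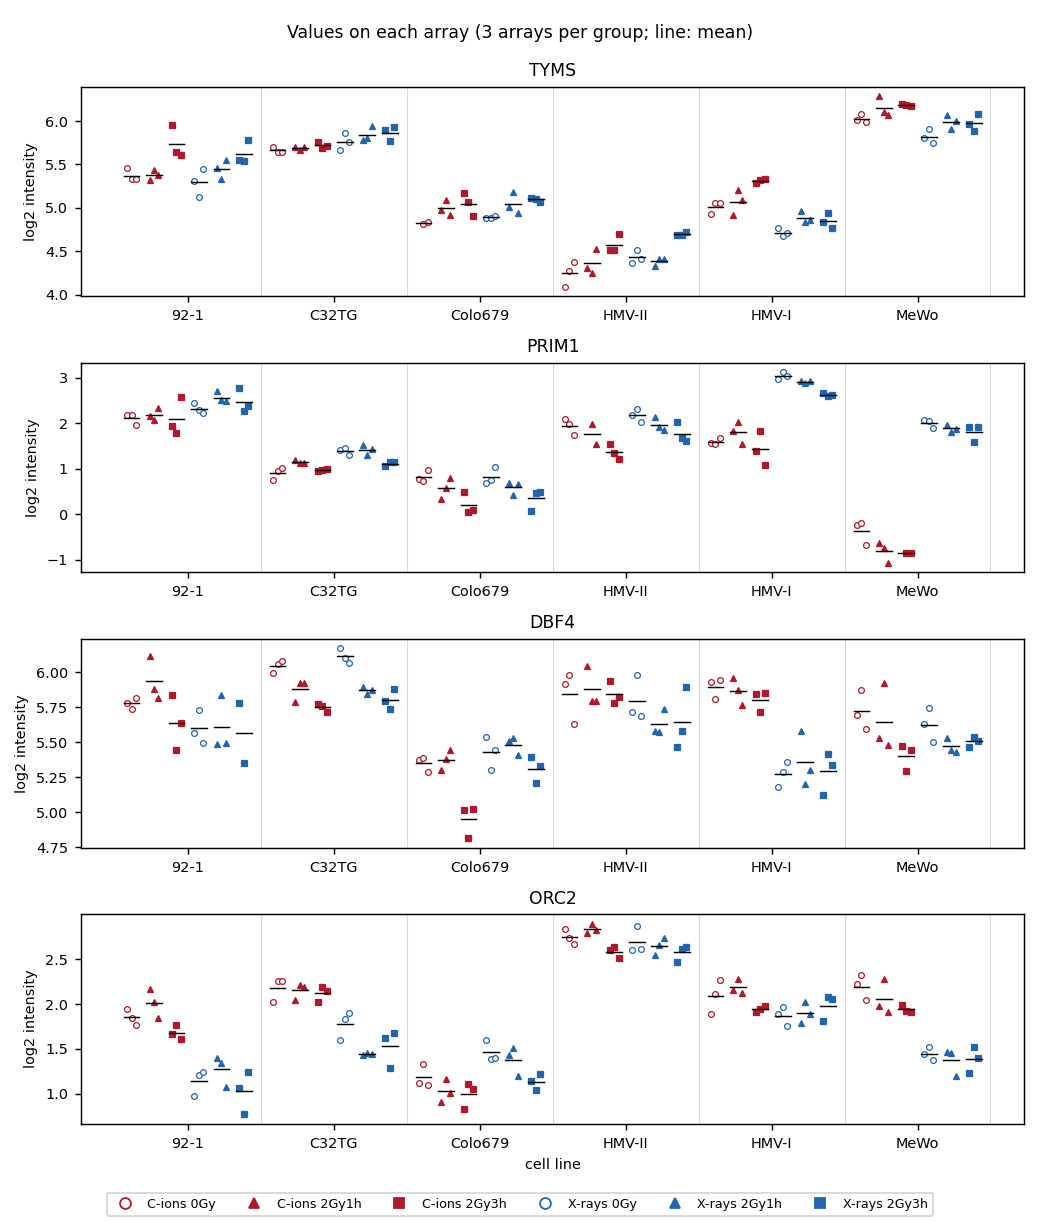
Log2 intensity of TYMS, PRIM1, DBF4 and ORC2 on each array, by line, with carbon ion arrays in red and X-ray arrays in blue; open circles are unirradiated, triangles 1 h and squares 3 h, and the bars are group means. TYMS squares lie above the circles in most lines, while the PRIM1 carbon ion and X-ray arrays of MeWo and HMV-I lie far apart before any irradiation.

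Other genes came near the threshold at 3 h. UHRF1 changed by -0.30 ± 0.33 after carbon ions (adjusted p = 0.0789), with -0.68 in 92-1 but 0.30 in C32TG, and by -0.20 ± 0.17 after X-rays (adjusted p = 0.0815). Its mean deposited log2 value was low, at -0.04, as were those of GINS1 (-0.28) and CDC25A (-0.33). Probes with a mean of -0.41 or less had been dropped. MCM2 changed by 0.14 ± 0.10 after carbon ions (adjusted p = 0.0821) and by 0.12 ± 0.12 after X-rays (adjusted p = 0.195), positive in 6 of 6 lines each time. TK1, the S-phase thymidine kinase, changed by 0.14 ± 0.07 after X-rays (adjusted p = 0.0644), positive in 6 of 6 lines. The nucleotide enzymes TYMS and TK1 thus had positive values in every line after X-rays. RRM1 and RRM2, the subunits of ribonucleotide reductase, had means of -0.03 and 0.06 with lines on either side of 0. Positive in every line were 3 of the 45 genes after each beam, where 9.6% of all probes were after carbon ions and 7.14% after X-rays.

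By role, the clamp and clamp loader genes had negative means throughout at 3 h, 5 of 5 after carbon ions (median -0.12, with the lowest mean, -0.27, for PCNA) and 5 of 5 after X-rays (median -0.09), and none of them passed. The PCNA mean after carbon ions rested on MeWo, where the change was -1.20 and 1 control and 1 irradiated array had no value, beside -0.48 to 0.29 in the other lines. The MCM2-7 subunits had a median of -0.04 after carbon ions and -0.02 after X-rays, with 2 of 6 positive each time. Of all probes, 51.2% and 51.8% had positive means. G1/S regulators (CCNE1, CCNE2, CDC25A, E2F1 and E2F2) had a median of 0.10 after carbon ions, with E2F2 at 0.19 ± 0.20 (adjusted p = 0.0887), and of 0.02 after X-rays. The 7 polymerase and primase genes had medians of -0.06 and -0.03, the 6 licensing genes of -0.00 and -0.03, and the 6 firing genes of 0.02 and 0.02. No mean of the 45 genes exceeded 0.30 in size on the log2 scale. The median interval of a gene reached 0.13 to either side for each beam at 3 h, so smaller changes could not be resolved with 6 lines. That interval is not adjusted for the number of probes, and some larger means, such as that of E2F2 after carbon ions, missed the threshold too.

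**Figure D3:**
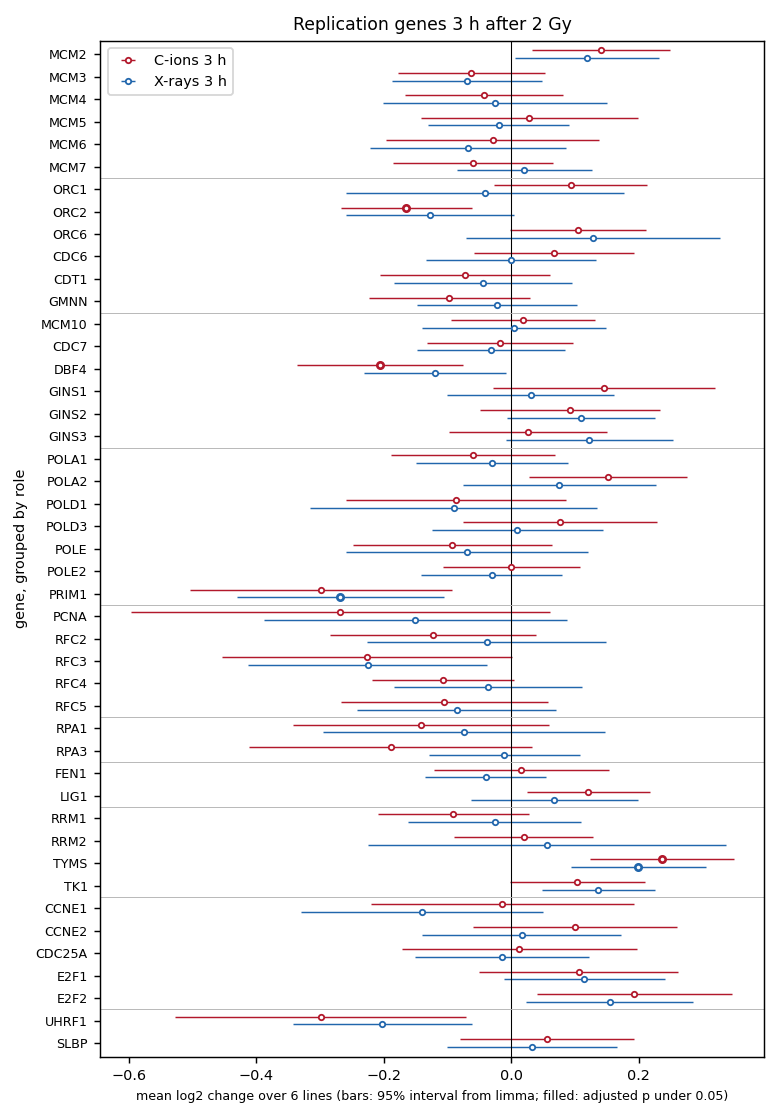
Mean log2 change over 6 lines at 3 h with its 95% limma interval for the 45 genes, carbon ions and X-rays side by side; filled symbols mark an adjusted p under 0.05 over all probes. Most intervals cross 0, and the filled symbols are TYMS, ORC2 and DBF4 for carbon ions and TYMS and PRIM1 for X-rays.

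At 1 h no gene passed across lines with limma for either beam. After carbon ions that is 0 of 45 higher and 0 lower, where 4.67% of all probes were called higher and 6.03% lower. Of the 45 means, 33 were positive, where 52.4% of all probes were, and the median was 0.06, beside 0.01 for all probes. An unadjusted p under 0.05 was found for 8 of the 45. The smallest p-values belonged to GINS2, a subunit of the CMG helicase (0.10 ± 0.05, adjusted p = 0.0825), RRM2 (0.11 ± 0.07, adjusted p = 0.0874) and MCM6 (0.09 ± 0.04, adjusted p = 0.122), each positive in 6 of 6 lines and none past the threshold. Positive in every line were 6 of the 45 genes, where 9.07% of all probes were. The count of called genes depended on the scaling: with median centring 12 genes were called, all higher, with the deposited values 8, all higher, and with 1 line or 1 replicate number left out at most 1. Under median centring the median was 0.10 for the 45 genes and 0.04 for all probes, and with the deposited values 0.07 and 0.01. The share of all probes called was not counted in either. After X-rays 0 were higher and 0 lower, where 0.368% and 0.786% of all probes were called, and 4 had an unadjusted p under 0.05. There GINS3, another subunit of the CMG helicase, changed by 0.12 ± 0.08 (adjusted p = 0.202), TYMS as given above, and POLA2, the second subunit of polymerase alpha, by 0.09 ± 0.02 (adjusted p = 0.294, 6 of 6 lines). Positive in every line were 2 of the 45 genes, where 4.15% of all probes were.

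Within lines the early calls were likewise few. Over the 6 lines, 7 of 257 tested changes were higher and 1 lower at 1 h after carbon ions, where 2.01% and 3.35% of all probe and line combinations were called, and 1 was higher and 2 lower after X-rays, where 0.65% and 1.26% were called. MeWo held 5 of the 8 carbon ion calls: RPA3, the small subunit of the single-strand binding protein, fell by 0.36 ± 0.10 (adjusted p = 0.0248), while POLA2 (0.29 ± 0.07), E2F2 (0.25 ± 0.07), GMNN, the inhibitor of CDT1 (0.23 ± 0.07), and MCM2 (0.17 ± 0.05) rose. The others were PRIM1 in C32TG (0.24 ± 0.07), MCM2 in Colo679 (0.25 ± 0.07) and MCM5 in HMV-I (0.32 ± 0.08). After X-rays ORC2 fell by 0.34 ± 0.09 and DBF4 by 0.24 ± 0.06 in C32TG, and MCM2 rose by 0.40 ± 0.08 in HMV-I, from 6.74, 6.66 and 6.85 to 7.20, 7.12 and 7.12. With the arrays of 1 replicate number left out, 1 to 2 carbon ion calls and 0 to 4 X-ray calls were made, and with median centring 2 genes were higher and 1 lower after X-rays.

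Between 1 h and 3 h, averaged over the beams and set on irradiated arrays alone, PRIM1 and RFC3 fell. These are 0 of 45 higher and 2 lower, where 2.51% of all probes were called higher and 2% lower, and 12 of the 45 had an unadjusted p under 0.05. PRIM1 fell by 0.22 ± 0.11 (95% interval -0.31 to -0.12, adjusted p = 0.0194) and RFC3 (probe 487019), a clamp loader subunit, by 0.19 ± 0.09 (adjusted p = 0.0218), each in 6 of 6 lines. In HMV-II the RFC3 arrays after carbon ions read 1.85, 1.34 and 1.32 at 1 h and 1.33, 1.16 and 0.91 at 3 h, and in Colo679 0.59, 0.72 and 0.56 at 1 h and 0.68, 0.65 and -0.10 at 3 h. The arrays of the times overlapped in both lines, in HMV-II by 1 array. ORC6, another origin recognition subunit, had the next smallest p with 0.15 ± 0.10 (adjusted p = 0.0526), positive in 6 of 6 lines. Of the 45 genes, 5 were lower in every line and 2 higher, where 6.93% and 6.52% of all probes were. With median centring 1 gene was called higher and 2 lower. Both calls were lost without C32TG, Colo679 or HMV-II, that of PRIM1 also without HMV-I or the arrays numbered 2 (adjusted p at most 0.0813) and that of RFC3 without the arrays numbered 1 or 3 (at most 0.0667).

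The beams were compared directly, as the change after carbon ions minus the change after X-rays in each line. Across lines 0 of 45 genes differed at 1 h and 0 at 3 h with limma, where 0% of all probes were called at either time; 3 and 0 had an unadjusted p under 0.05. At 1 h the smallest p-values were those of CDC25A, the phosphatase that activates cyclin E-CDK2 (0.18 ± 0.17, adjusted p = 0.636), RRM1 (0.12 ± 0.10, adjusted p = 0.643) and GINS1 (0.15 ± 0.13, adjusted p = 0.653). At 3 h they were those of RPA3 (-0.18 ± 0.26), CCNE1 (0.13) and GINS3 (-0.10), with adjusted p-values of 1. For TYMS the difference at 3 h was 0.04 (95% interval -0.10 to 0.17) and for PRIM1 -0.03 (-0.23 to 0.16), and the median gene had an interval of 0.16 to either side. For ORC2 it was -0.04 (-0.20 to 0.13) and for DBF4 -0.09 (-0.24 to 0.07). The ORC2 and DBF4 calls after carbon ions and the PRIM1 call after X-rays were thus not shown to be particular to their beam.

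Within lines at 3 h the calls were more numerous and their direction depended on the line. Summed over lines, 23 of 257 tested changes were higher and 18 lower after carbon ions, where 6.71% and 6.68% of all probe and line combinations were called. After X-rays 15 were higher and 25 lower, where 4.49% and 4.36% were called. With median centring these became 52 higher and 15 lower, and 29 higher and 18 lower, and leaving out the arrays of 1 replicate number left 9 to 19 and 7 to 19 calls. The share of all probe and line combinations called under these alternatives was not counted.

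Colo679 after X-rays stood out by its 17 genes lower and 2 higher, where 9.24% and 10% of all probes were called. The median of its 43 tested genes was -0.18, beside 0.02 for all probes, and 9 were positive, where 54.7% of all probes were. Before irradiation, however, 4 of these 43 genes were higher in the line's carbon ion set than in its X-ray set, where 47.3% of all probes were. The median of that difference was -0.17, beside -0.01 for all probes. The X-ray arrays had 2636, 3545 and 4517 missing values without irradiation and 6561, 5491 and 3096 at 3 h. The part of either in the result was not tested. POLD1, the catalytic subunit of polymerase delta, read 2.07, 2.00 and 1.96 without irradiation, 1.96, 1.25 and 1.16 at 1 h and 0.94, 1.33 and 1.34 at 3 h. CCNE1, cyclin E1, read 2.97, 3.06 and 2.98 and then 2.40, 2.26 and 2.44 at 3 h. PCNA, the sliding clamp, read 5.32, 5.27 and 5.22 and then 4.61, 4.81 and 4.40. For all 3 genes the 3 h arrays lay below every control, and at 1 h the arrays of POLD1 were split, with the one numbered 1 at the control level. POLD1 fell by 0.81 ± 0.16 (0.57-fold, adjusted p = 0.00236), PCNA by 0.66 ± 0.16 (0.632-fold, adjusted p = 0.00889), CCNE1 by 0.64 ± 0.09 (0.643-fold, adjusted p = 0.000216), RFC3 by 0.61 ± 0.17 (adjusted p = 0.0183) and ORC1, the largest origin recognition subunit, by 0.61 ± 0.14 (adjusted p = 0.00658). RFC2, POLE, RPA1, RRM2, RFC5, PRIM1, MCM6, MCM4, ORC6, RFC4, ORC2 and CCNE2 also fell, by 0.30 to 0.59, so the calls reached the helicase, origin recognition, the polymerases, the clamp loader and the reductase alike. LIG1, the ligase that joins Okazaki fragments, rose by 0.31 ± 0.07 and MCM2 by 0.24 ± 0.07. The 19 calls became 11, 3 and 12 without the arrays numbered 1, 2 and 3.

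Colo679 after carbon ions had 4 genes lower and 1 higher, where 8.4% and 9.89% of all probes were called. RFC3 fell by 0.67 ± 0.17 (adjusted p = 0.0124), PRIM1 by 0.62 ± 0.14 (adjusted p = 0.00762) from 0.76, 0.74 and 0.97 to 0.49, 0.04 and 0.09, DBF4 by 0.40 ± 0.08 (adjusted p = 0.00269) and CCNE1 by 0.39 ± 0.09 (adjusted p = 0.00531), and POLA2 rose by 0.29 ± 0.09 (adjusted p = 0.026). POLD1 did not follow, with 1.73, 1.60 and 1.69 before and 1.63, 1.79 and 1.76 after. The difference between the beams passed for 0 of 43 genes in this line with limma (11 at an unadjusted p under 0.05), where 0.71% of all probes were called, so the longer list after X-rays was not shown to differ from that after carbon ions. Without the arrays numbered 2 no carbon ion call was left, and the split was 5 higher and 5 lower with median centring and 1 higher and 9 lower with the deposited values.

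In MeWo the calls were mostly higher, as they were in 92-1 and HMV-I. After carbon ions 11 genes were higher and 3 lower, where 9.55% and 11.5% of all probes were called, and after X-rays 7 were higher and 0 lower, where 2.1% and 1.55% were called. E2F2, an activator E2F, read 5.66, 5.68 and 5.65 without irradiation, 5.88, 6.00 and 5.84 at 1 h and 5.98, 6.16 and 6.12 at 3 h in the carbon ion set, and 5.51, 5.43 and 5.33 and then 5.82, 5.87 and 5.75 at 3 h in the X-ray set. Every 3 h array lay above every control in both sets. The same held for 17 of 43 genes and 18.3% of all probes after carbon ions, and for 19 of 44 and 13.3% after X-rays. E2F2 rose by 0.42 ± 0.07 (adjusted p = 0.00018) after carbon ions and by 0.39 ± 0.07 (adjusted p = 0.00354) after X-rays. CCNE1 rose by 0.36 ± 0.06 (adjusted p = 0.000398) and GINS2 by 0.34 ± 0.07 (adjusted p = 0.0021) after carbon ions, and after X-rays CCNE2, cyclin E2, by 0.37 ± 0.08 (adjusted p = 0.0178), MCM4 by 0.30 ± 0.05 (adjusted p = 0.0048), ORC6 by 0.29 ± 0.07 and POLA2 by 0.28 ± 0.07. GINS1 rose by 0.52 ± 0.18 (adjusted p = 0.049), but its 3 h arrays read 0.86, 0.18 and -0.16 against -0.27, -0.10 and -0.30, so the first array set the size. The 14 carbon ion calls became 5, 3 and 10 and the 7 X-ray calls 0, 0 and 4 without the arrays numbered 1, 2 and 3, and the deposited values gave 3 higher and 4 lower after carbon ions and 1 higher after X-rays.

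RPA3 in MeWo and POLD1 in Colo679 had the largest called falls of the 45 genes in any line. Its carbon ion arrays read 3.50, 3.31 and 3.17 without irradiation, 3.12, 2.93 and 2.84 at 1 h and 2.75, 2.32 and 2.49 at 3 h. Its X-ray arrays read 5.38, 5.33 and 5.33 without irradiation and 5.18, 5.16 and 5.38 at 3 h. The carbon ion arrays thus started far below the X-ray arrays and moved lower at each time, while the X-ray arrays overlapped with their controls. RPA3 fell by 0.80 ± 0.10 at 3 h after carbon ions (0.573-fold, adjusted p = 2.19e-05), and the difference from X-rays was -0.70 ± 0.14 (adjusted p = 0.0268), the one gene of 43 to pass in MeWo, where 1.4% of all probes did.

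HMV-I had 6 genes higher and 3 lower after carbon ions, where 7.83% and 6.76% of all probes were called, and 5 higher and 3 lower after X-rays, where 8% and 6.63% were called. RRM2 (probe 373034), the regulatory subunit of ribonucleotide reductase, read 2.61, 2.93 and 2.70 without irradiation and 3.33, 3.75 and 3.71 at 3 h after X-rays, and in the carbon ion set 3.97, 3.76 and 4.0 and then 3.80, 3.97 and 3.97. RPA1 read 1.79, 1.98 and 1.69 and then 1.95, 2.46 and 2.26 with X-rays, and 3.50, 3.68 and 3.51 and then 2.83, 3.30 and 2.96 with carbon ions. For both genes the controls of the beams lay more than 1 log2 unit apart, and the values after X-rays approached the carbon ion values. After X-rays RRM2 rose by 0.85 ± 0.10 (1.8-fold, adjusted p = 3.58e-05), the largest called rise of the 45 genes in any line, and RPA1 by 0.40 ± 0.13 (adjusted p = 0.0425), while PRIM1 fell by 0.41 ± 0.13 (adjusted p = 0.0412), PCNA by 0.40 ± 0.11 (adjusted p = 0.0188) and POLA2 by 0.29 ± 0.07 (adjusted p = 0.00859). After carbon ions RPA1 fell by 0.53 ± 0.13 (adjusted p = 0.0107) and UHRF1 by 0.46 ± 0.12 (adjusted p = 0.0176), while CCNE2 rose by 0.40 ± 0.08 (adjusted p = 0.00379), E2F2 by 0.38 ± 0.07 (adjusted p = 0.00153) and POLD3, an accessory subunit of polymerase delta, by 0.37 ± 0.06 (adjusted p = 0.000816), the last from 4.76, 4.70 and 4.78 to 5.18, 5.04 and 5.15.

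The difference between beams at 3 h passed for 3 of 43 genes in HMV-I, where 2.63% of all probes were called: RPA1 (-0.93 ± 0.18, adjusted p = 0.0104), RRM2 (-0.85 ± 0.15, adjusted p = 0.00566) and POLA2 (0.39 ± 0.10, adjusted p = 0.0340). In all 3 the carbon ion change minus the X-ray change rests on control sets that were measured separately. Median centring gave 23 higher and 3 lower after carbon ions and 7 higher and 0 lower after X-rays in this line, the deposited values 11 higher and 3 lower and 4 higher and 0 lower, and leaving out the arrays of 1 replicate number left 3 to 5 and 1 to 3 calls.

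The remaining lines had fewer calls. In HMV-II 2 genes were higher and 4 lower after carbon ions, where 4.3% and 4.9% of all probes were called. POLD1 fell by 0.56 ± 0.12 (adjusted p = 0.00741) from 2.57, 2.82 and 2.93 to 2.06, 2.07 and 2.51, and the clamp loader subunits RFC5 and RFC2 by 0.46 ± 0.08 (adjusted p = 0.00216) and 0.43 ± 0.08 (adjusted p = 0.00317), RFC5 from 4.08, 4.07 and 4.13 to 3.61, 3.59 and 3.71. The irradiated arrays of all 3 genes lay below their controls, as did those of 12 of 44 replication genes and 15.0% of all probes. MCM6 fell by 0.38 ± 0.08 (adjusted p = 0.00905), and TYMS rose by 0.33 ± 0.09 (adjusted p = 0.0263). After X-rays 0 were higher and 0 lower with limma (5 at an unadjusted p under 0.05), where 1.46% and 1.73% of all probes were called, and RFC5 read 4.02, 3.96 and 4.01 before and 3.94, 4.11 and 4.06 after. The difference between beams passed for 0 of 41 genes in HMV-II (5 at an unadjusted p under 0.05), where 0.264% of all probes were called. Without the arrays numbered 2 no carbon ion call was left, and median centring gave 4 higher and 3 lower.

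In 92-1, 3 genes were higher and 1 lower after carbon ions, where 4.55% and 3.95% of all probes were called. UHRF1 fell by 0.68 ± 0.18 (adjusted p = 0.0295) from 1.11, 0.89 and 0.64 to -0.14, 0.67 and 0.07, with 1 irradiated array inside the range of the controls. TYMS rose by 0.36 ± 0.10 (adjusted p = 0.038), MCM5 by 0.33 ± 0.08 (adjusted p = 0.0236) from 5.80, 5.91 and 5.79 to 6.15, 6.10 and 6.25, and TK1 by 0.22 ± 0.07 (adjusted p = 0.0473). After X-rays 1 was higher and 0 lower, where 2.98% and 1.97% were called: ORC6 rose by 0.52 ± 0.11 (adjusted p = 0.0106) from 3.04, 3.06 and 3.14 to 3.58, 3.42 and 3.80. The difference between beams passed for 0 of 43 genes (4 at an unadjusted p under 0.05), where 0.00346% of all probes were called. Leaving out the arrays of 1 replicate number left 0 to 1 call for each beam, and median centring gave 6 higher and 1 lower after carbon ions and 5 higher and 0 lower after X-rays.

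In C32TG every call was lower. After carbon ions 0 were higher and 3 lower, where 3.99% and 4.45% of all probes were called: DBF4 fell by 0.30 ± 0.06 (adjusted p = 0.00272), CCNE1 by 0.26 ± 0.07 (adjusted p = 0.0323) and GINS3 by 0.22 ± 0.07 (adjusted p = 0.0494). After X-rays 0 were higher and 5 lower, where 2.15% and 4.87% were called: DBF4 fell by 0.31 ± 0.06 (adjusted p = 0.00193) from 6.17, 6.10 and 6.07 to 5.80, 5.74 and 5.88, PRIM1 by 0.28 ± 0.07 (adjusted p = 0.0192), POLD3 by 0.27 ± 0.08 (adjusted p = 0.0414), MCM10, which helps the helicase start, by 0.23 ± 0.07 (adjusted p = 0.0405) and GMNN by 0.23 ± 0.06 (adjusted p = 0.0218). The irradiated DBF4 arrays lay below all controls in both sets, as did 15.8% of all probes after carbon ions and 12.8% after X-rays. The difference between beams passed for 0 of 44 genes (6 at an unadjusted p under 0.05), where 0.683% of all probes were called. Median centring left 1 higher and 1 lower after carbon ions and 1 lower after X-rays, the deposited values 1 higher and 1 lower in turn, and without the arrays of 1 replicate number 0 to 1 and 0 to 2 calls were left.

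**Figure D4:**
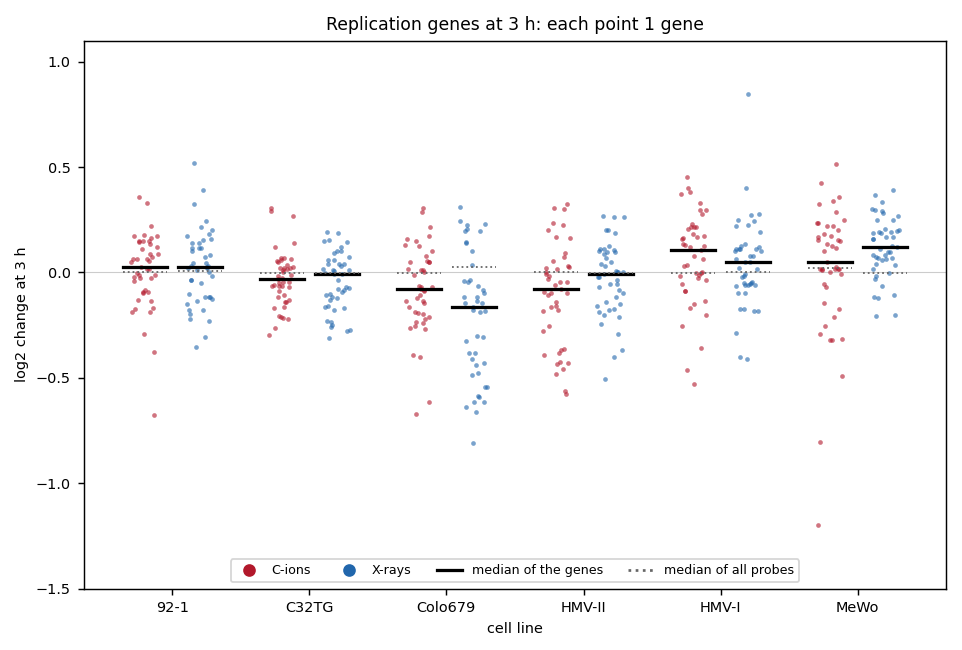
Log2 change at 3 h of each gene (points) in each of 6 lines after carbon ions and after X-rays, with the median of the genes as a solid bar and that of all probes as a dotted bar. The medians of all probes stay near 0, while that of the replication genes lies lowest in Colo679 after X-rays and highest in HMV-I after carbon ions and in MeWo after X-rays.

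The change differed between lines for 10 of 33 genes at 3 h after carbon ions, where 23.7% of all probes passed, and for 13 of 33 after X-rays, where 23.1% passed, by limma's moderated F over genes with complete values. That F covers the spread between arrays only, which may be technical. After X-rays the smallest p-values belonged to MCM4 (adjusted p = 2.6e-05) and ORC6 (adjusted p = 3.72e-05). MCM4 read 4.62, 4.41 and 4.59 before and 4.25, 4.03 and 4.11 after in Colo679, and 4.72, 4.76 and 4.75 before and 4.99, 5.07 and 5.07 after in MeWo. The lines thus moved in opposite directions without overlap. After carbon ions E2F2 (adjusted p = 5.97e-05) ranged from -0.06 in Colo679 to 0.42 in MeWo. Leaving out the arrays of 1 replicate number left 6 to 7 genes after carbon ions and 5 to 12 after X-rays.

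Counted over lines, beams and times, MCM2 had the most calls after irradiation, 7 higher and 0 lower, in 3 lines. In MeWo its carbon ion arrays read 6.15, 6.17 and 6.23 without irradiation, 6.33, 6.34 and 6.37 at 1 h and 6.37, 6.34 and 6.50 at 3 h. In HMV-I its X-ray arrays read 6.74, 6.66 and 6.85, then 7.20, 7.12 and 7.12 and then 6.95, 6.95 and 7.10. Every irradiated MCM2 array lay above every control in these sets. Of all probes, 12.9% and 18.3% did so at 1 h and 3 h in MeWo, and 9.08% and 19.1% in HMV-I. At 1 h other MCM2 sets lay below every control, without a call. In 92-1 they read 5.90, 5.89 and 5.93 against 6.02, 6.05 and 6.04 with carbon ions. With X-rays they read 5.67, 5.89 and 5.87 against 5.92, 6.01 and 5.91 in 92-1. In MeWo the X-ray arrays read 5.77, 5.81 and 5.78 against 5.89, 5.83 and 5.84. Of all probes, 13.3%, 11.1% and 9.38% lay below every control in these sets in turn. E2F2 followed with 5 higher and 0 lower and DBF4 with 0 higher and 5 lower, while PRIM1 had 1 higher and 4 lower, CCNE1 2 higher and 3 lower and POLA2 4 higher and 1 lower. Of the 45 genes, 14 were called in both directions, 10 only higher and 13 only lower, where 7.74%, 29.2% and 24.6% of all probes were, and no gene was called in more than 3 lines. The highest number of lines was not counted for all probes. The remaining 8 genes, CDC25A, CDC7, CDT1, E2F1, FEN1, MCM3, MCM7 and POLA1, were not called in any line after irradiation. By the shares just given, a larger part of all probes was not called in any line. For MCM3, MCM7 and CDC7 the mean absolute change over lines, beams and times was 0.09, 0.08 and 0.08, and for CDC25A it was 0.15.

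The unirradiated sets of the beams differed within lines, for these genes and for the array at large. Across lines 0 of 45 passed with limma, where 0% of all probes were called, and 8 had an unadjusted p under 0.05. RRM1 was higher in the carbon ion set in 6 of 6 lines (0.36 ± 0.18, adjusted p = 0.395), and ORC1 (0.64 ± 0.56) and UHRF1 (0.51 ± 0.46) in 5 of 6 (adjusted p = 0.416 each). Of all probes, 2.34% were higher in 6 of 6 lines. Within lines 101 of 257 differences passed, 67 of them higher in the carbon ion set and 34 lower, where 17.6% and 17.7% of all probe and line combinations were called. In at least 1 line 41 of the 45 genes were called, where 88% of all probes were.

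MeWo had the most, 27 higher and 7 lower of 43, where 38.2% and 32.1% of all probes were called. RPA3 was lower in its carbon ion set by 2.02 ± 0.10 (0.246-fold, adjusted p = 4.57e-12), RFC3 by 1.78 ± 0.16 (adjusted p = 9.63e-09) from 1.79, 1.51 and 1.42 to 0.28, -0.32 and -0.56, and CDT1 by 1.40 ± 0.14 (adjusted p = 5.63e-08), while ORC1 was higher by 0.97 ± 0.11 (adjusted p = 1.17e-07) and CDC7 by 0.83 ± 0.06 (adjusted p = 1.26e-09). The control arrays of the sets did not overlap for RFC3. PCNA and PRIM1 had missing values in MeWo and were not tested there. PRIM1 read 2.08, 2.05 and 1.89 in the X-ray set and -0.23, -0.20 and -0.67 in the carbon ion set, and the PCNA arrays with a value read 4.82 and 4.74 against 2.63 and 2.13. Under median centring the highest line median of all probes moved from 0.05, that of MeWo, to 0.22, for which the line was not recorded. The differences named above are large beside that shift, but the median difference of the 43 tested genes was 0.33. The split was 29 higher and 4 lower under median centring, or 16 higher and 10 lower with the deposited values.

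HMV-I had 14 genes higher and 10 lower in its carbon ion set, where 23.1% and 23.8% of all probes were called. RPA1 was higher by 1.74 ± 0.13 (3.34-fold, adjusted p = 1.66e-09), ORC1 by 1.19 ± 0.10 (adjusted p = 5.48e-09), RRM2 by 1.17 ± 0.10 (adjusted p = 1.92e-08) and RFC3 by 0.80 ± 0.13 (adjusted p = 4.23e-05). PRIM1 was lower by 1.44 ± 0.13 (0.368-fold, adjusted p = 2.51e-08), with 1.57, 1.53 and 1.67 in the carbon ion set and 2.96, 3.12 and 3.03 in the X-ray set. C32TG had 11 higher and 9 lower, where 20.1% and 23.5% were called, led by RPA1 (1.46 ± 0.15, 2.75-fold, adjusted p = 5.18e-07), RRM2 (1.14 ± 0.13), MCM6 (0.90 ± 0.10), ORC1 (0.88 ± 0.12) and RFC5 (0.74 ± 0.10). With the deposited values HMV-I had 19 higher and 3 lower, and with median centring C32TG had 11 higher and 14 lower.

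In 92-1, 9 genes were higher and 1 lower in the carbon ion set, where 7.73% and 7.34% of all probes were called. RRM2 read 3.59, 3.34 and 3.32 there and 1.37, 1.86 and 2.12 in the X-ray set, and was higher by 1.63 ± 0.24 (3.1-fold, adjusted p = 0.000224). RPA1 was higher by 1.41 ± 0.23, UHRF1 by 1.09 ± 0.18, MCM6 by 1.08 ± 0.25 and ORC1 by 0.85 ± 0.24. The X-ray control array numbered 1 was the lowest for RPA1 (0.96, against 1.38 and 1.45), RRM2, MCM6 (2.30, against 2.78 and 2.92) and ORC1 (0.78, against 0.99 and 1.45), and without the arrays of that number 1 of the 10 calls was left. HMV-II had 6 higher and 2 lower, where 9.93% and 12.2% were called, with POLD1 higher by 0.67 ± 0.12, RPA1 by 0.65 ± 0.19, UHRF1 by 0.53 ± 0.17 and MCM6 by 0.32 ± 0.08 and POLA2 lower by 0.62 ± 0.08. Colo679 went the other way, with 0 higher and 5 lower, where 6.74% and 7.02% were called: RPA1 was lower by 0.53 ± 0.16, MCM10 by 0.48 ± 0.08, MCM6 by 0.39 ± 0.12, RPA3 by 0.30 ± 0.09 and POLE2, a subunit of polymerase epsilon, by 0.22 ± 0.06. The HMV-II calls became 1 without the arrays numbered 2, those of Colo679 became 1 without those numbered 2 or 3, and Colo679 had 13 lower with median centring.

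MCM6 passed between the unirradiated sets in all 6 lines, with differences of 1.08 in 92-1, 0.90 in C32TG, 0.74 in HMV-I, 0.73 in MeWo, 0.32 in HMV-II and -0.39 in Colo679. ORC1 and UHRF1 passed as higher in 5 lines each, RPA1 and RRM2 in 4, and RPA1 as lower in Colo679. After irradiation, by contrast, MCM6 had 1 call higher and 2 lower, UHRF1 0 and 2 and ORC1 0 and 1. MCM2, MCM3 and MCM7, subunits of the same helicase, had mean absolute differences between the sets of 0.17, 0.11 and 0.10, against 0.69 for MCM6. The genes with the largest differences before irradiation were therefore other ones than MCM2, E2F2 and DBF4, which had the most calls in 1 direction after it. MCM2, E2F2 and DBF4 each had at most 2 calls between the sets.

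**Figure D5:**
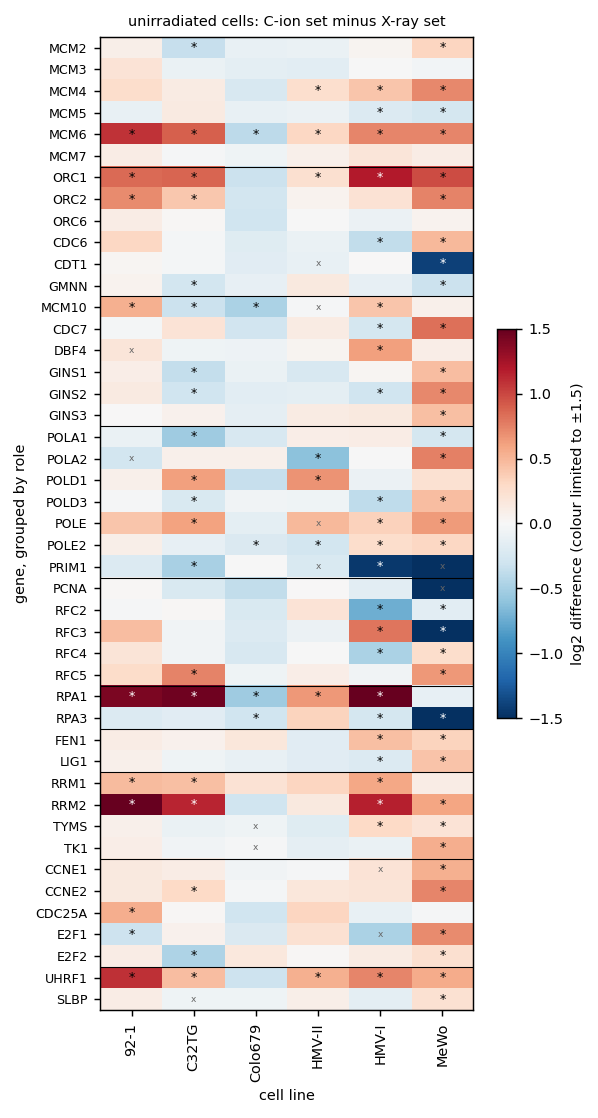
Heat map of the log2 difference between the unirradiated sets, carbon ion set minus X-ray set, for the 45 genes (rows) in 6 lines (columns), on a colour scale from -1.5 to 1.5; asterisks mark differences that passed within the line. MCM6, ORC1, RPA1, RRM2 and UHRF1 are high in most lines but not in Colo679, and MeWo has the strongest negative cells.

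Of the genes called in 3 lines, PRIM1 had the largest mean absolute change (0.22), and its likeness to other genes was measured over the 36 group means. Pearson's correlation was highest with DNAH14 (0.928), FBLIM1 (0.908), LUC7L (0.903), RAB11B (0.888) and TCEAL4 (0.886). With each line's mean removed they were SH3GLB1 (0.969), TCF19 (0.966), FRA10AC1 (0.963), LOC101928796 (0.958) and DECR1 (0.957). The 36 means share lines and control sets, so the values describe these arrays only.

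Other genes of the pathway are read against the same shares of all probes, 6.43% higher and 6.98% lower at 3 h after carbon ions and 2.96% and 4.19% after X-rays. Of 24 further replication factors, 0 were higher and 3 lower at 3 h after carbon ions: ORC5 (-0.30 ± 0.27, adjusted p = 0.0405), MCM9 (-0.23 ± 0.13, adjusted p = 0.0254) and TICRR, which helps load CDC45 (-0.29 ± 0.27, adjusted p = 0.049). After X-rays MCM9 (-0.26 ± 0.16, adjusted p = 0.0272) and TICRR (-0.32 ± 0.28, adjusted p = 0.0396) fell, and between 1 h and 3 h WDHD1 fell. Medians were -0.05 and 0.00. Of 5 tested genes of further nucleotide supply, RRM2B, the p53-induced small subunit of ribonucleotide reductase, rose by 0.33 ± 0.31 (adjusted p = 0.0419) after carbon ions and by 0.50 ± 0.17 (adjusted p = 0.00213) after X-rays. Its partner and relative among the 45 genes, RRM1 and RRM2, did not pass in either. Among 6 chromatin assembly genes NASP, a histone chaperone, fell at 3 h by 0.25 ± 0.08 (adjusted p = 0.0114) after carbon ions and by 0.22 ± 0.15 (adjusted p = 0.046) after X-rays.

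Among 21 other regulators of G1/S, 3 rose and 3 fell at 3 h after carbon ions, where 6.43% and 6.98% of all probes were called. CDKN1A rose in 6 of 6 lines, by 0.34 in HMV-I up to 2.23 in 92-1 (mean 1.20 ± 0.74, adjusted p = 0.00644), TFDP2, an E2F partner, by 0.23 ± 0.10 (adjusted p = 0.0164) and CDK6 by 0.21 ± 0.08 (adjusted p = 0.0225), while CCNA2, cyclin A2, fell by 0.34 ± 0.20 (adjusted p = 0.0112), RB1 by 0.27 ± 0.22 (adjusted p = 0.0332) and CDK2 by 0.23 ± 0.16 (adjusted p = 0.0349). After X-rays the rise of CDKN1A was 1.18 ± 0.81 (adjusted p = 0.00707) and that of CDK6 0.20 ± 0.09 (adjusted p = 0.0378). The p53 targets and the genes of G2 and mitosis served as a scale: 9 of 11 p53 targets rose and 14 of 23 genes of G2 and mitosis fell after carbon ions, with medians of 0.87 and -0.28, and 8 and 4 did so after X-rays, where 2.96% of all probes were called higher and 4.19% lower, with medians of 0.80 and -0.14. The replication genes, with medians of -0.01 and -0.03 in the same samples, had 2 of 45 lower and 1 of 45 lower. In 92-1, the line with the highest CDKN1A changes (2.23 and 2.31), the replication genes had medians of 0.02 and 0.03. Their medians were 0.05 and 0.12 in MeWo (CDKN1A 0.61 and 0.37) and 0.11 and 0.05 in HMV-I (0.34 and 0.45). They were -0.03 and -0.01 in C32TG (1.91 and 1.78), -0.08 and -0.17 in Colo679 (1.20 and 1.55) and -0.08 and -0.01 in HMV-II (0.90 and 0.62). A relation between these medians and CDKN1A was not tested.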

How the data were processed

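RNA of 36 groups of 3 samples was hybridised to single-colour arrays of 54359 probes. The values are linear probe intensities as deposited by the authors; per the labels' protocols RNA was extracted with ISOGEN and RNeasy and the target was labelled with biotin, and the scaling software is not given in the sources used here. Array medians lay between 1.02 and 1.32. Probes were kept with at most 10% missing values, a value in every group and a mean log2 above the 40th percentile (-0.41), which left 32060, and their log2 values were quantile normalized. A gene was read from its kept probe of 1 symbol with the highest mean. Across lines, the 6 line changes were tested against 0 with limma 3.58.1 (R 4.3.3; data.table, version 1.17.8; eBayes with a trend, two-sided, Benjamini-Hochberg over all probes), and within lines limma was fitted to each line's 18 arrays over probes with complete values. The fits were tested on simulated data. The beam differences within lines were added after the data were seen. The 47 genes and the other lists were chosen with earlier results of these data known.

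The text names every gene called across lines (with fewer than 3 called, the 3 smallest p-values), up to 5 called genes of largest change in each line, and the 5 genes most like the one called in most lines; genes beside these were named after their values were seen. Alternatives were median centring, no further normalization, no level filter, the mean over probes, no trend, a replicate block, a fit over all arrays, quantile normalization before the filter, and each line or replicate number left out. Array numbers were not treated as pairs: same-numbered arrays of a line had correlations of deviations that averaged -0.01 to 0.07 by line, with 7 to 22 of 45 pairs over 0.1.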

Additional observations from a re-analysis of the deposited data

Results flagged for a closer look

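The change of RPA3 at 3 h after carbon ions minus that after X-rays was -0.70 in MeWo and -0.18 to -0.03 in the other 5 lines, far from the others by Dixon's ratio (0.777, above its 95% critical value). It was the one such value among the 32 named results examined over 6 lines, and chance alone gives about 1 in 20 groups such a value. The MeWo control sets of RPA3 themselves differed by -2.02, and the part of this in the result was not tested.

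The change differed between times for PRIM1 (3 h minus 1 h, -0.22) and RFC3 (-0.19), each by limma's test of the difference over lines. It differed between lines for 10 of 33 genes at 3 h after carbon ions and for 13 of 33 after X-rays, where 23.7% and 23.1% of all probes did. The change differed between beams at 3 h for 3 genes in HMV-I (RPA1, RRM2 and POLA2) and for 1 in MeWo (RPA3), by limma's test of that difference within the line. The tests between lines and within a line cover the spread between arrays only.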

How the results depend on the processing

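Each result was recomputed with 1 choice changed at a time. The counts are those of the replication genes alone, since the share of all probes called was not counted under the alternatives. For carbon ions at 1 h, 0 genes were called across lines, but 12 with median centring, 8 with the deposited values, and 4 in a fit over all arrays that ignores the spread between lines, alike with and without a replicate block. For carbon ions at 3 h, 3 became 10, 5 and 14 in turn, and 1 with no filter on level. For X-rays at 1 h, 0 became 2 in the fit over all arrays. For X-rays at 3 h, 2 became 4 with median centring, 9 in the fit over all arrays, and 1 with no filter, with the mean over probes, with no trend or with quantile normalization over all probes, an alternative chosen after seeing the data. For 3 h minus 1 h, 2 became 4 with the deposited values and 11 in the fit over all arrays, and between the unirradiated sets 0 became 18 there. Leaving out each line or replicate number gave 0 to 1, 0 to 6, 0 to 2 and 0 to 2 calls for carbon ions at 1 h and 3 h, X-rays at 3 h and 3 h minus 1 h. The beam differences across lines stayed at 0 under every alternative that was run.

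Within lines, the 41 carbon ion calls at 3 h became 67 with median centring, and the 8 at 1 h became 5 with no filter or no trend and 3 with quantile normalization over all probes. The 3 X-ray calls at 1 h became 1 with the deposited values and 5 with a replicate block, and the paired fits moved no other count by over 1.5 times in the fits within lines. Leaving out 1 replicate number gave 1 to 2 and 9 to 19 carbon ion calls at 1 h and 3 h, 0 to 4 and 7 to 19 X-ray calls, and 6 to 7 and 5 to 12 genes whose change differed between lines; such fits have fewer arrays. The across-line values recomputed, those of the genes with a call or the 3 smallest p-values in each comparison, kept their direction. With 3 arrays a group, differences of the size of the printed standard errors cannot be resolved, and some larger ones missed the threshold as well.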
